A study of Mus musculus with 12 samples.

Results

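The genes described here are 10 genes of semaphorin signalling: the secreted class 3 semaphorins Sema3e, Sema3a, Sema3c, Sema3f and Sema3g, the plexin receptors Plxnd1, Plxna1 and Plxna2, and the neuropilin co-receptors Nrp1 and Nrp2. They were taken by symbol from the 14851 genes of the deposited tables, and all 10 were listed. Sema3e was chosen because its RNA was higher in every KO than in control, so its values are given as a description without a test. The other members were not chosen by a stated threshold. The measurements come from 12 RNA-sequencing libraries of 562 cells, a spontaneously immortalized line from cutaneous vascular tumors of C57BL/6 mice in which tamoxifen-induced Scl-Cre deleted floxed Tsc1. The labels call the tissue lymphatic endothelial cells and the control genotype wildtype, but all 12 libraries come from this Tsc1-deficient line. Control cells carried a CRISPR vector with an sgRNA against EGFP, and the KO cells carried sgRNA against an autophagy gene, Fip200, Atg5 or Atg7, followed by puromycin selection, with 3 libraries a group. The sources used here do not say which Fip200 sgRNA or clone was sequenced or whether the other KO cells were clones or pools. The study calls the replicates independent mRNA samples and, in a general statement on its experiments, biological, but does not say whether these libraries came from separate cultures, so p-values measure the spread between these libraries.

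Class 3 semaphorins are secreted guidance proteins. Most of them bind a neuropilin, which holds the ligand while a plexin of the A family passes the signal into the cell, where its GAP domain switches off small GTPases of the R-Ras and Rap families and lowers integrin adhesion. Sema3e differs in that it binds plexin D1 directly, a receptor of endothelial cells through which it repels growing vessels. Neuropilins also bind VEGF, Nrp1 mainly with the receptor KDR of blood endothelium and Nrp2 with the lymphatic receptor FLT4.

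Promoter sequences from RefSeq were available for 8 of the 10 genes, all but Sema3f and Plxna1. The promoters of 3 ligand genes of chromosome 5 are shown because the ligand differences given here concern them, together with Plxnd1, the receptor of Sema3e. Each run gives the 250 bases before the start site of the RefSeq table, 5′ to 3′ on the gene's strand, and capitals mark the GC box GGGCGG or its complement on either strand.
Sema3e (GRCm38.p6, chr5:14025026-14025275, plus strand): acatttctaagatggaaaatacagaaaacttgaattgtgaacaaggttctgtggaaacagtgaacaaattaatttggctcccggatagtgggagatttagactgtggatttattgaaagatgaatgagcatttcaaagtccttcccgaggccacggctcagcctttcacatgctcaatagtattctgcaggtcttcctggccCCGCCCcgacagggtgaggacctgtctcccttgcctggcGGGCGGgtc
Sema3a (GRCm38.p6, chr5:13396534-13396783, plus strand): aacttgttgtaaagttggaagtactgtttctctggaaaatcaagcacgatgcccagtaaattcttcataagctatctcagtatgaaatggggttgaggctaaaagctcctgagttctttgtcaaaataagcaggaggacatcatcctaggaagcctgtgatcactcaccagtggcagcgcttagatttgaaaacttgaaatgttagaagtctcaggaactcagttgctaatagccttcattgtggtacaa
Sema3c (GRCm38.p6, chr5:17574566-17574815, plus strand): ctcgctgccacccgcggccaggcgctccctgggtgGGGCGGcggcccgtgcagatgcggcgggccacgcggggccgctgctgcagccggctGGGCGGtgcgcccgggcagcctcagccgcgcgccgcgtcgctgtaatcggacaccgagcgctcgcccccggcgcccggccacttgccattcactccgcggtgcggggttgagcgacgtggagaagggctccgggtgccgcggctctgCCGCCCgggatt
Plxnd1 (GRCm38.p6, chr6:115995006-115995255, minus strand): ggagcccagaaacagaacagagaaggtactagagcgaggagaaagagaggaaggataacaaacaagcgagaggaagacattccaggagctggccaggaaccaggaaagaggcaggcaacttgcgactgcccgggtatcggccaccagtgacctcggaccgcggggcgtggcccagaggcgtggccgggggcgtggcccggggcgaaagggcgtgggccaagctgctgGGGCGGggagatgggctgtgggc

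The GC box was present in 7 of the 8 promoters, all but that of Sema3a, and in 54.9% of the 14761 promoters of listed genes. The Sema3a window held 40.8% G and C and the Sema3e window 48.0%, against a median of 59.2% over all promoters, whereas the Sema3c window held 78.4%. The STAT motif TTCNNNGAA, the E-box CACGTG, the AP-1 motif TGANTCA, the CRE motif TGACGTCA and the TATA box TATAAA were searched on both strands and were in none of the 8 windows. Over all promoters they were found in 6.00%, 8.01%, 4.97%, 2.45% and 7.00%, respectively. A match of letters is a description of the window and was not tested as a binding site.

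Levels are given as RPKM, the reads of a gene per kilobase of its length scaled to the reads of its library, as the authors deposited them, so that genes can be compared with each other. In control cells the order of mean RPKM was Plxnd1 (124), Sema3f (76.1), Sema3a (75.2), Nrp2 (43.3), Plxna2 (18.7), Plxna1 (11.6), Nrp1 (9.14), Sema3c (5.46), Sema3e (3.41) and Sema3g (0.137). Sema3a lay above Nrp2, Nrp2 above Plxna2, Plxna2 above Plxna1 and Sema3e above Sema3g in every control library, while the other neighbours in this order overlapped between libraries. Plxnd1 stood above 96.5% of the listed genes by control mean and Sema3e above 38.8%. The receptor of Sema3e was therefore among the abundant transcripts of control cells and its ligand among the less abundant ones. In Atg7 KO cells Sema3e stood sixth of the 10 genes, and its libraries overlapped there with those of Plxna2 and Plxna1.

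**Figure D1:**
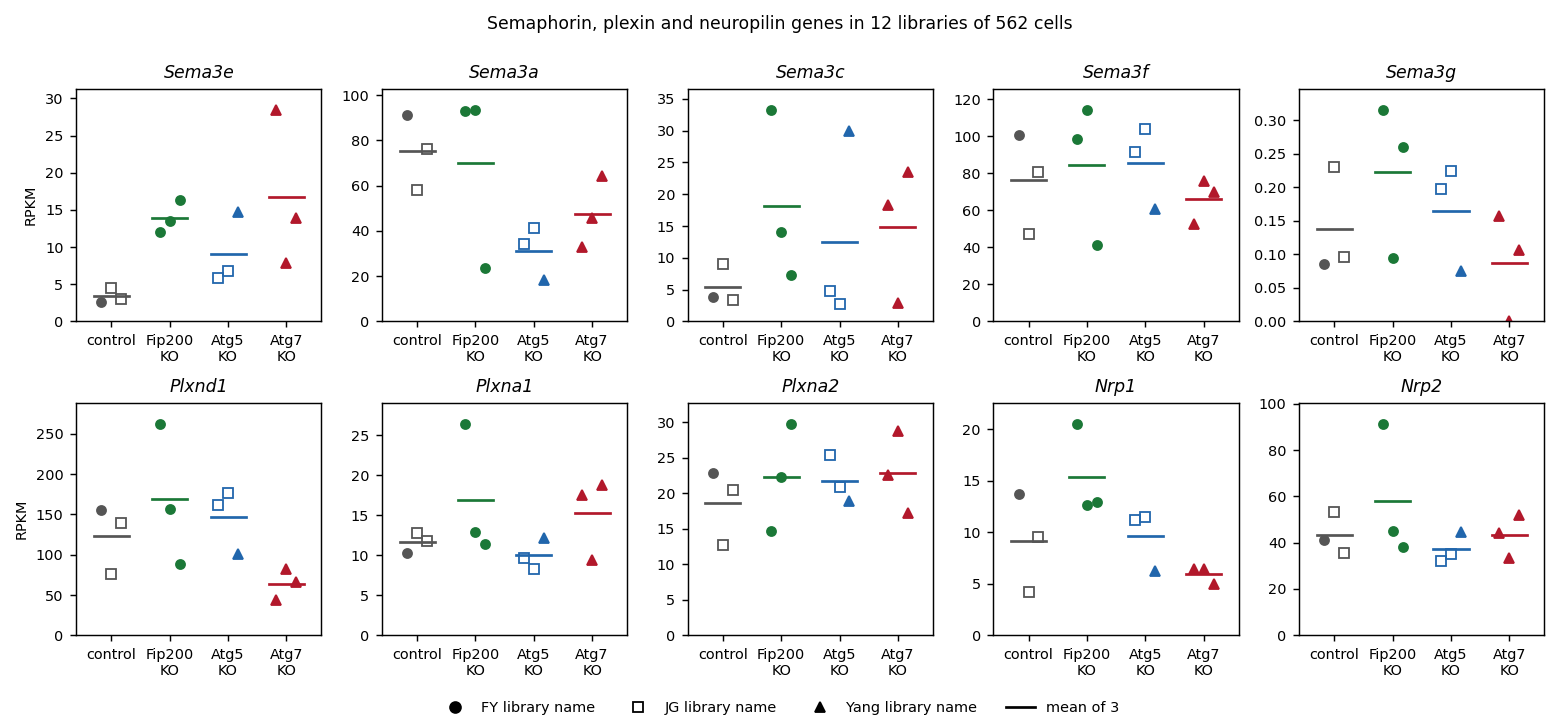
RPKM of the 10 genes in each library, with a separate linear axis from 0 for each gene; horizontal lines are means of 3 libraries and symbols give the prefix of the library name. All 9 KO libraries lie above the 3 control libraries for Sema3e, from 5.88 against at most 4.56, and in the 3 Atg5 KO libraries Sema3a lies below all controls.

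Library names begin with FY, JG or Yang. FY covers control replicate 1 and the 3 Fip200 KO libraries, JG covers control replicates 2 and 3 and Atg5 KO replicates 1 and 2, and Yang covers Atg5 KO replicate 3 and the 3 Atg7 KO libraries, so that no prefix holds both control and Atg7 KO libraries. The libraries held 17266926 to 23629730 reads. The targeted RNA fell in Atg7 KO cells (log2 fold change −1.97, adjusted p = 0.0216 from limma; −1.93 and not called with a term for the library name prefix, adjusted p = 0.589). Atg7 RNA was also below control in every Atg5 KO library (−0.95, adjusted p = 0.0083, short of the fold needed for a call but past it with median-of-ratios scaling, without control replicate 1 or without Atg5 KO replicate 2). In contrast, Rb1cc1, which encodes FIP200, had −0.74 in Fip200 KO cells (adjusted p = 0.404), or −0.30 without Fip200 KO replicate 3, which at 2.06 RPKM was below the 5.18 and 6.84 of the other Fip200 KO libraries, and Atg5 had 0.003 in Atg5 KO cells (adjusted p = 0.994). The labels of the latter groups were thus not checked by RNA. The study itself checked the Fip200, Atg5 and Atg7 knockouts by western blots of the proteins. The summed RPKM of 10 endothelial markers was 1130.5 to 2911, but the markers were uneven. Emcn and Pecam1 had at least 476 and 265 RPKM in every library, whereas Vwf stayed at or under 0.809 RPKM and Cldn5 ranged from 0.143 to 67.6 RPKM. Among the 5 lymphatic markers in the files, Lyve1, Flt4 and Pdpn were at 31.7 RPKM or more in every library, whereas Prox1, which defines lymphatic identity, lay between 0.0366 and 5.79 RPKM and Reln between 0.00775 and 4.39 RPKM. Control replicate 2 stood apart in some fibroblast markers, with 143 RPKM of Col3a1, 56.9 of Dcn and 9.02 of Pdgfra, against 23.1, 15.2 and 2.26 in control replicate 3 and 2.82, 0.125 and 0.113 in control replicate 1. Other markers of that kind did not follow. Acta2 had 0.444 RPKM in control replicate 2, against 0.820 and 2.91 in control replicates 1 and 3, and Thy1 11.2 against 17.75 and 2.36. Col1a1 and Col1a2 were at 0.0785 and 0.0162 RPKM in control replicate 2. Without control replicate 2 the Sema3e differences were 2.11, 1.42 and 2.19 in Fip200, Atg5 and Atg7 KO cells and the Sema3a difference in Atg5 KO cells was −1.48 (adjusted p = 0.0344 from limma, called).

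Sema3e, the ligand of plexin D1 (gene ID 20349), stood at 2.63, 4.56 and 3.04 RPKM in control replicates 1, 2 and 3. It had 12.1, 13.5 and 16.4 in Fip200 KO cells, 5.88, 6.77 and 14.8 in Atg5 KO cells and 28.4, 7.84 and 13.9 in Atg7 KO cells. All KO libraries were above all control libraries, and the lowest KO value was that of Atg5 KO replicate 1. The means were 4.10-fold, 2.68-fold and 4.91-fold that of control, and the differences on log2(RPKM + 0.5) were 1.91 (standard error 0.264), 1.22 (0.357) and 1.99 (0.442). These are the values that chose the gene. In bulk RNA, more RNA per cell and more cells that make it cannot be told apart.

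The size of the Sema3e difference moved with the library name. Among FY libraries alone it was 2.20 for Fip200 KO, and among JG libraries alone it was 0.69 for Atg5 KO. With the prefix as a term in a fit of all 12 libraries it was 2.20, 0.69 and 0.68 for Fip200, Atg5 and Atg7 KO, the last resting on Atg5 KO replicate 3 to join the Yang libraries to the others. It was above 0 under every alternative run, which is a description, since Sema3e was chosen for its rise in these libraries. Between 342 and 3365 reads stood behind each Sema3e value, so counting error was small beside the spread between libraries, which reached 3.62-fold among the Atg7 KO libraries.

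Sema3a, which signals through Nrp1 and A-type plexins (gene ID 20346), went the other way in Atg5 KO cells. Its RPKM was 91.1, 58.1 and 76.4 in control and 34.3, 41.1 and 18.4 in Atg5 KO cells, so the groups did not overlap. The log2 fold change was −1.31 (standard error 0.312, 95% confidence interval −2.05 to −0.57, adjusted p = 0.0236 from limma), which met both limits for a call, an adjusted p no higher than 0.1 and a change of 1 or more on the log2 scale in either direction. Sema3a was the only one of the 8 tested members other than Sema3e to be called in Atg5 KO cells, where 11.2% of all 11833 tested genes were called. It was also the only one whose libraries did not overlap with control there, against 50.4% of all tested genes. Between JG libraries the difference was −0.82. The call was lost with the prefix as a term (−0.82, adjusted p = 0.46), in a fit of all 12 libraries (adjusted p = 0.11) and without Atg5 KO replicate 3 (−0.97, adjusted p = 0.0319, short of the fold threshold), and the adjusted p ranged from 0.0215 to 0.46 over its alternatives.

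In the other KO cells the Sema3a difference was not called. Fip200 KO replicates 1 and 2 had 92.9 and 93.4 RPKM, above the highest control library, whereas replicate 3 had 23.6. The difference of −0.32 on the log2 scale (standard error 0.527, adjusted p = 0.786) turned to 0.33 without Fip200 KO replicate 3. Atg7 KO cells had 32.8, 45.8 and 64.1 RPKM, of which the highest overlapped with control replicate 2, and differed from control by −0.68 on the log2 scale (standard error 0.276, adjusted p = 0.132).

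Sema3a and Sema3e lie next to each other on chromosome 5 in the RefSeq order of GRCm38.p6, with no listed gene between them. The listed genes on either side are Sema3a and then Sema3d, and Pclo and then Speer8-ps1. Sema3d and Pclo, a presynaptic scaffold gene, stayed at or under 0.551 and 0.0237 RPKM in every library and were not tested, and Speer8-ps1 ranged from 0 to 4.55 RPKM. Sema3a exceeded Sema3e by 34.7, 12.8 and 25.1 times in the control libraries. In the KO libraries this ratio lay between 1.16 and 7.69, so that every KO library was below every control library. Since Sema3e was chosen for its rise, the direction of this ratio is a description.

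Sema3c, which signals through neuropilins with plexin D1 or A-type plexins (gene ID 20348), ranged 12.4-fold over the libraries, the widest range among the 9 members that passed the filter on low values. Its RPKM was 3.85, 9.09 and 3.42 in control, 33.2, 14.1 and 7.27 after loss of Fip200, 4.83, 2.67 and 29.9 after loss of Atg5 and 18.3, 2.95 and 23.4 after loss of Atg7. In both the Atg5 KO and the Atg7 KO group, high libraries and libraries below the control mean stood side by side, and every KO group overlapped with control. The log2 fold changes were 1.51 (standard error 0.577, adjusted p = 0.268), 0.55 (0.820, adjusted p = 0.632) and 1.08 (0.735, adjusted p = 0.337). Single libraries decided these values. Sema3c was called in Fip200 KO cells without replicate 3 (2.02, adjusted p = 0.0983) and in Atg7 KO cells without replicate 2 (1.95, adjusted p = 0.0253), and in Atg5 KO cells the difference turned to −0.41 without replicate 3. It also turned, to −0.58 in Atg5 KO and to −1.97 in Atg7 KO cells, with the prefix as a term. The adjusted p ranged from 0.0983 to 0.757, from 0.299 to 0.839 and from 0.0253 to 0.709 over the alternatives of the 3 comparisons. Sema3c lies beyond Sema3e on the same chromosome, with 5 listed genes between them.

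Sema3f, a ligand that prefers Nrp2 (gene ID 20350), was as abundant as Sema3a in control cells. It had 100.6, 47.1 and 80.6 RPKM in control, 98.4, 114 and 41.1 after loss of Fip200, 91.4, 104 and 60.4 after loss of Atg5 and 52.6, 75.9 and 69.7 after loss of Atg7. The groups overlapped throughout, and the log2 fold changes of 0.09, 0.19 and −0.15 had 95% confidence intervals of −0.95 to 1.13, −0.55 to 0.94 and −0.84 to 0.54. Sema3g had at most 0.315 RPKM and 0 to 23 reads per library, did not pass the filter of 0.5 RPKM in at least 3 libraries and was not tested. Over all members, 9 of 10 passed that filter in each comparison.

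Among the receptors, Plxnd1 (gene ID 67784) was lowest in Atg7 KO cells. Its RPKM was 156, 76.6 and 139 in control, 262, 157 and 88.0 after loss of Fip200, 162, 177 and 101 after loss of Atg5 and 43.6, 82.6 and 66.0 after loss of Atg7. The Atg7 KO libraries overlapped with control only through control replicate 2. The log2 fold change in Atg7 KO cells was −0.93 (standard error 0.331, 95% confidence interval −1.71 to −0.15, adjusted p = 0.101 from limma), short of both thresholds. It passed them without control replicate 2 (−1.24, adjusted p = 0.0768) and without Atg7 KO replicate 2 (−1.13, adjusted p = 0.0622), with a range of adjusted p from 0.0622 to 0.997 over all alternatives. The prefix moved with this difference. The Yang library of Atg5 KO cells had 101 RPKM against 162 and 177 in the JG libraries of the same group, and with the prefix as a term the Atg7 KO difference was 0.01. In Fip200 KO and Atg5 KO cells the Plxnd1 log2 fold changes were 0.37 (adjusted p = 0.697) and 0.27 (adjusted p = 0.548).

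Plxnd1 RNA exceeded that of its ligand Sema3e in all 12 libraries. The ratio was 59.3, 16.8 and 45.7 in control, 21.7, 11.6 and 5.38 after loss of Fip200, 27.5, 26.2 and 6.84 after loss of Atg5 and 1.54, 10.5 and 4.74 after loss of Atg7. All Atg7 KO libraries were below all control libraries in this ratio. Because Sema3e, its denominator, was chosen for its rise, the direction of the ratio of Plxnd1 to Sema3e is likewise a description. The JG libraries of Atg5 KO cells, at 27.5 and 26.2, lay between those of control, at 16.8 and 45.7.

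**Figure D2:**
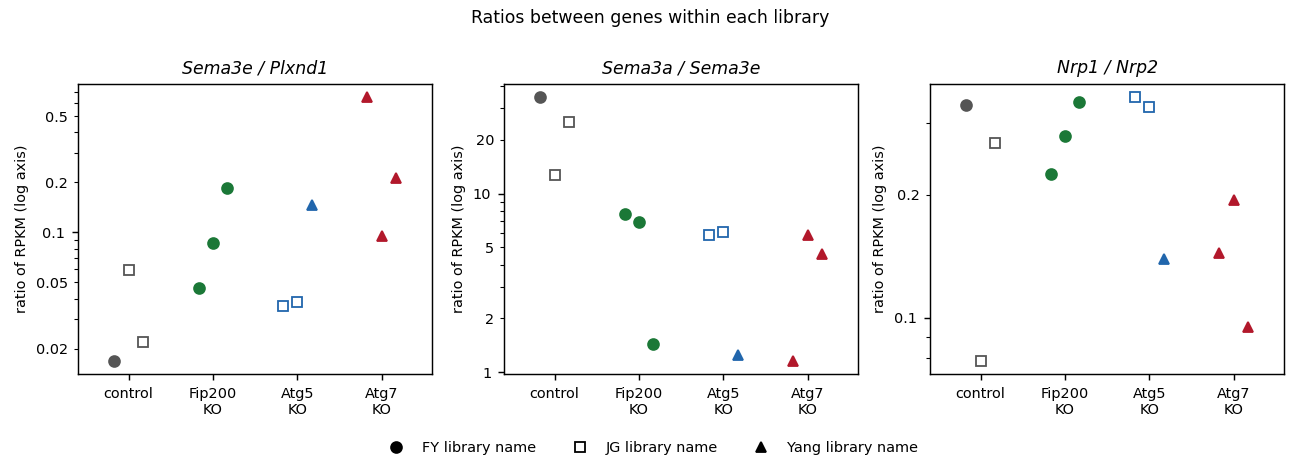
Ratios of RPKM between pairs of genes within each library, on log axes, with symbols for the prefix of the library name. The ratio of Sema3a to Sema3e lies at 12.8 or more in control and at 7.69 or less in the KO libraries, whereas the ratios of Sema3e to Plxnd1 and of Nrp1 to Nrp2 overlap between control and some KO groups.

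The A-type plexins, through which most class 3 semaphorins signal, showed no called difference. Plxna1 (gene ID 18844) was even in control, with 10.3, 12.8 and 11.8 RPKM, and had 26.4, 12.9 and 11.4 after loss of Fip200, 9.66, 8.31 and 12.1 after loss of Atg5 and 17.5, 9.46 and 18.8 after loss of Atg7. Its log2 fold changes were 0.43, −0.21 and 0.33 (adjusted p = 0.542, 0.359 and 0.432 from limma). Plxna2 (gene ID 18845) had 22.8, 12.8 and 20.4 RPKM in control and between 14.7 and 29.8 in the KO libraries, with log2 fold changes of 0.23, 0.24 and 0.30 (adjusted p = 0.749, 0.444 and 0.480). The 95% confidence intervals of Plxna2 reached from −0.54 to 1.00, from −0.30 to 0.79 and from −0.35 to 0.94.

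Of the co-receptors, Nrp2 was more abundant than Nrp1 in every library, by 2.88 to 12.7 times. Nrp1 (gene ID 18186) had 13.7, 4.17 and 9.52 RPKM in control, 20.5, 12.6 and 12.9 after loss of Fip200, 11.2, 11.5 and 6.20 after loss of Atg5 and 6.39, 6.47 and 4.94 after loss of Atg7. Control replicate 2 was the lowest of all 12 libraries. The 3 Atg7 KO libraries and the Yang library of Atg5 KO cells lay within 4.94 to 6.47 RPKM. Against control the log2 fold changes were 0.82 (standard error 0.429, adjusted p = 0.390), 0.17 (0.431, adjusted p = 0.787) and −0.45 (0.393, adjusted p = 0.456). Control libraries moved these values. They were 0.37, −0.28 and −0.90 without control replicate 2 and 1.18, 0.52 and −0.10 without control replicate 1, and with the prefix as a term they were 0.12, 0.79 and 0.72. Nrp2 (gene ID 18187) had 41.3, 53.1 and 35.6 RPKM in control, 91.3, 45.1 and 38.2 after loss of Fip200, 32.3, 35.1 and 44.5 after loss of Atg5 and 44.3, 33.3 and 51.9 after loss of Atg7, and log2 fold changes of 0.33, −0.21 and −0.01 (adjusted p = 0.654, 0.420 and 0.982).

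Over the 8 tested members other than Sema3e, 0 were called in Fip200 KO cells, where 1.98% of 11803 tested genes were called, 1 in Atg5 KO cells and 0 in Atg7 KO cells, where 10.1% of 11784 genes were called. Neither Fip200 KO nor Atg7 KO cells had a tested member other than Sema3e without overlap with control, against 24.1% and 39.6% of all tested genes. At an unadjusted p under 0.05, the members were Sema3c in Fip200 KO, Sema3a in Atg5 KO and Sema3a and Plxnd1 in Atg7 KO cells, where 1904, 5188 and 3973 of all genes passed. A test of the recovered reads by voom called the same numbers of members, 0, 1 and 0. The median log2 fold change of the 8 members was 0.35, 0.18 and −0.08, beside 0.02, 0.06 and −0.01 over all tested genes. The 3 comparisons share their control libraries.

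**Figure D3:**
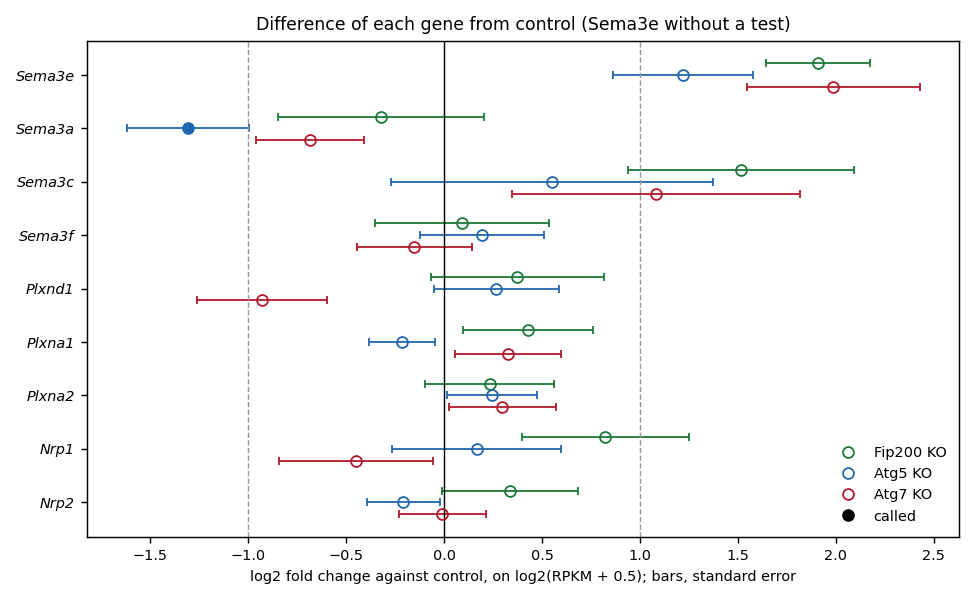
Log2 fold change of 9 genes in each KO against control, with standard errors as bars, dashed lines at −1 and 1 and a filled point where the difference was called. Sema3a in Atg5 KO cells, at −1.31, is the filled point, and Sema3e, which was chosen for its rise, was not tested.

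The KO groups were also compared with each other in a fit of all 12 libraries. No member was called in any of the 3 comparisons, and 0 of 12233 tested genes (0.0%) were called in each, with 927, 916 and 562 genes at an unadjusted p under 0.05 for Atg5 against Fip200 KO, Atg7 against Fip200 KO and Atg7 against Atg5 KO. By voom on recovered reads, 0 genes were called as well. The log2 difference of Plxnd1 was −1.30 between Atg7 and Fip200 KO (standard error 0.410, 95% confidence interval −2.20 to −0.40, adjusted p = 0.549 from limma) and −1.19 between Atg7 and Atg5 KO (adjusted p = 0.984). That of Nrp1 was −1.27 between Atg7 and Fip200 KO (standard error 0.381, adjusted p = 0.549). Of the 8 tested members other than Sema3e, the libraries did not overlap for Nrp1 between Atg5 and Fip200 KO, for Plxnd1 and Nrp1 between Atg7 and Fip200 KO and for Plxnd1 between Atg7 and Atg5 KO, beside 14.3%, 8.23% and 16.6% of all tested genes. With the prefix as a term these differences between Atg7 and Fip200 KO were 0.04 for Plxnd1 and 0.60 for Nrp1. Without Fip200 KO replicate 3, Plxnd1 was called between Atg7 and Fip200 KO (−1.70, adjusted p = 0.054) and Sema3a between Atg5 and Fip200 KO. The adjusted p of Plxnd1 and Nrp1 ranged from 0.054 to 1 and from 0.117 to 1 over the alternatives. For Sema3e the log2 differences between KO groups were −0.69, 0.08 and 0.77, given without a test.

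The other genes of the pathway were read from fixed lists. As background, the share of tested genes called lower was 1.64% for Fip200 KO, 6.94% for Atg5 KO and 6.81% for Atg7 KO, and the share called higher was 0.347%, 4.31% and 3.29%, in the same order. The other class 3 semaphorins in the files, Sema3b and Sema3d, stayed at or under 0.551 RPKM and were not tested. Of 12 membrane-bound semaphorins in the files, 6, 7 and 6 were tested in Fip200, Atg5 and Atg7 KO cells. None was called in Fip200 KO cells. Sema6b was called higher and Sema4g lower under loss of Atg5 and also under loss of Atg7.

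Sema6b, a transmembrane ligand of A-type plexins, had 13.1, 8.72 and 10.6 RPKM in control, 19.2, 22.2 and 28.5 after loss of Fip200, 26.9, 26.5 and 29.0 after loss of Atg5 and 27.9, 18.2 and 22.3 after loss of Atg7. It was higher in all 9 KO libraries than in any control library. Libraries did not overlap with control for 24.1%, 50.4% and 39.6% of all tested genes in Fip200, Atg5 and Atg7 KO cells. The share without overlap in all 3 comparisons at once was not computed. The log2 fold changes of Sema6b were 1.07 (adjusted p = 0.112), 1.32 (standard error 0.160, adjusted p = 0.00478) and 1.04 (0.222, adjusted p = 0.0287 from limma). In Fip200 KO cells the adjusted p ranged from 0.0216, called in the fit of all 12 libraries, to 0.627 over the alternatives. In Atg5 KO cells the call stood in 15 of 15 alternatives. In Atg7 KO cells it stood in 11 of 15 and was lost with the prefix as a term (1.07, adjusted p = 0.437) and without control replicate 2, control replicate 3 or Atg7 KO replicate 1, with values of 0.88 to 1.19 when single libraries were left out. Sema4g was low throughout, at 0.784 to 3.23 RPKM in control and 0.0942 to 0.463 in Atg5 and Atg7 KO libraries. In these comparisons it passed the filter on low values only through the control libraries, where it was high, so it had to differ, and it was not tested when a control library was left out. Its calls (−1.32 and −1.34, adjusted p = 0.0474 and 0.0747) stood in 9 and 8 of 12 alternatives. That in Atg5 KO cells was lost with a pseudocount of 1 and without Atg5 KO replicate 1 or 3 (−1.45 to −1.23 with single libraries left out), and that in Atg7 KO cells with a pseudocount of 1, with the prefix as a term (−1.41, adjusted p = 0.528) and without Atg7 KO replicate 1 or 3.

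Of the other plexins, Plxna4 and Plxnb2 were tested. Plxnb2, a receptor of class 4 semaphorins, had 50.8, 76.5 and 69.3 RPKM in control and 25.2, 23.4 and 52.4 in Atg5 KO cells and was called lower there (−1.03, standard error 0.321, adjusted p = 0.0519 from limma). The call was lost in the fit of all 12 libraries and without control replicate 2, control replicate 3, Atg5 KO replicate 1 or Atg5 KO replicate 2, with values from −1.39 to −0.82 when single libraries were left out. In Atg7 KO cells Plxnb2 had −0.93 (adjusted p = 0.0992), short of the fold threshold, and Plxna4, a receptor of Sema3a, had 1.17, 0.77 and 0.96 without a call.

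Of 30 effectors and partners of plexins, 29 were tested. None was called in Fip200 KO cells, 2 were called lower and 0 higher after loss of Atg5, and 2 lower and 3 higher after loss of Atg7. Rras, the R-Ras GTPase on which the plexin GAP domain acts, had 77.4, 80.5 and 70.8 RPKM in control, 44.4, 37.1 and 21.7 after loss of Fip200, 31.6, 38.0 and 24.0 after loss of Atg5 and 26.6, 35.0 and 28.9 after loss of Atg7. All 9 KO libraries were below all control libraries, beside 24.1%, 50.4% and 39.6% of all tested genes without overlap in the Fip200, Atg5 and Atg7 KO comparisons. The log2 fold changes of Rras were −1.20 (standard error 0.280, adjusted p = 0.120, not called), −1.30 (0.173, adjusted p = 0.0055) and −1.33 (0.155, adjusted p = 0.0081 from limma). In Fip200 KO cells the adjusted p ranged from 0.0291, called in the fit of all 12 libraries, to 0.496 over the alternatives. The call stood in 15 of 15 alternatives in Atg5 KO and 14 of 15 in Atg7 KO cells, where the prefix as a term left −0.80 (adjusted p = 0.641).

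Limk1, the kinase that inactivates cofilin, was the other effector called lower in Atg5 and Atg7 KO cells (−1.22 and −1.06, adjusted p = 0.00495 and 0.0457). With the prefix as a term the values were larger in size but not called (−1.43 and −1.46, adjusted p = 0.19 and 0.627). In Atg7 KO cells the call was also lost in the fit of all 12 libraries and without control replicate 2, control replicate 3, Atg7 KO replicate 1 or Atg7 KO replicate 2 (−1.35 to −0.87 with single libraries left out). Rras2 was called higher in Atg7 KO cells (1.27, adjusted p = 0.0109), with 77.6, 73.0 and 89.9 RPKM against 27.9 to 38.8 in control. The Yang library of Atg5 KO cells also had 65.3 RPKM of Rras2, against 33.8 and 29.1 in the JG libraries of that group, and with the prefix as a term the Atg7 KO difference was 0.34 (adjusted p = 0.751). Mras and Rnd1 were also called higher in Atg7 KO cells (1.09 and 1.19, adjusted p = 0.0782 and 0.0795). With the prefix as a term they had 2.48 and 1.07 and were not called (adjusted p = 0.244 and 0.74). Without the filter on low values neither was called (adjusted p = 0.113 and 0.108), nor was Mras in the fit of all 12 libraries (0.141). Rnd1 was not called with a term for the replicate number (adjusted p = 0.101), nor Mras with a pseudocount of 1 (0.96, short of the fold threshold). Each of these 2 calls was also lost without control replicate 1 or 3 and without Atg7 KO replicate 3, and that of Mras also without Atg7 KO replicate 2 and that of Rnd1 without Atg7 KO replicate 1, with values from 0.86 to 1.40 and from 0.86 to 1.55.

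The VEGF ligands and receptors that neuropilins bind or assist were all tested, 8 genes in each comparison. In Fip200 KO cells 1 was called lower, after loss of Atg5 2 lower and 1 higher, and after loss of Atg7 3 lower. Flt1, the VEGF receptor that mainly traps ligand, had 23.3, 16.1 and 34.1 RPKM in control, 0.145, 1.12 and 5.99 in Fip200 KO and 4.66, 3.56 and 0.804 in Atg7 KO cells. Its log2 fold changes there were −3.66 (standard error 0.779, adjusted p = 0.0995) and −2.99 (0.530, adjusted p = 0.0196 from limma). Atg5 KO cells had 12.1, 15.9 and 2.21 RPKM of Flt1 and a log2 fold change of −1.54 (adjusted p = 0.122, not called). Without Atg5 KO replicate 2 this was −2.03 and called (adjusted p = 0.0845). The Fip200 KO call stood in 5 of 15 alternatives. Of the 6 left-out libraries, the call stood only without Fip200 KO replicate 3, with values from −4.55 to −2.88. In Atg7 KO cells 14 of 15 alternatives kept it, and the prefix as a term left −0.58 (adjusted p = 0.927).

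Vegfa was called lower in Atg5 and Atg7 KO cells (−1.26 and −1.20, adjusted p = 0.0169 and 0.0591), and Vegfc, the ligand of FLT4 and Nrp2, likewise (−2.40 and −2.34, adjusted p = 0.0238 and 0.0324). With the prefix as a term the values were of like size, −1.39 and −1.33 for Vegfa and −2.74 and −2.06 for Vegfc, and none was called (adjusted p = 0.217, 0.675, 0.18 and 0.72). The call of Vegfa was also lost without control replicate 2 in both. In Atg7 KO cells it was lost with a term for the replicate number (adjusted p = 0.131). It was also lost there without control replicate 3, Atg7 KO replicate 1 or Atg7 KO replicate 2 (−1.49 to −0.93). The call of Vegfc in Atg7 KO cells was lost in the fit of all 12 libraries (adjusted p = 0.103) and without control replicate 3 or Atg7 KO replicate 1 (−2.99 to −1.90). Kdr was called higher in Atg5 KO cells (1.35, adjusted p = 0.0878), and this call was lost without the filter on low values (adjusted p = 0.115), in the fit of all 12 libraries (0.12) and without control replicate 2, control replicate 3, Atg5 KO replicate 1 or Atg5 KO replicate 2 (0.81 to 1.84).

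**Figure D4:**
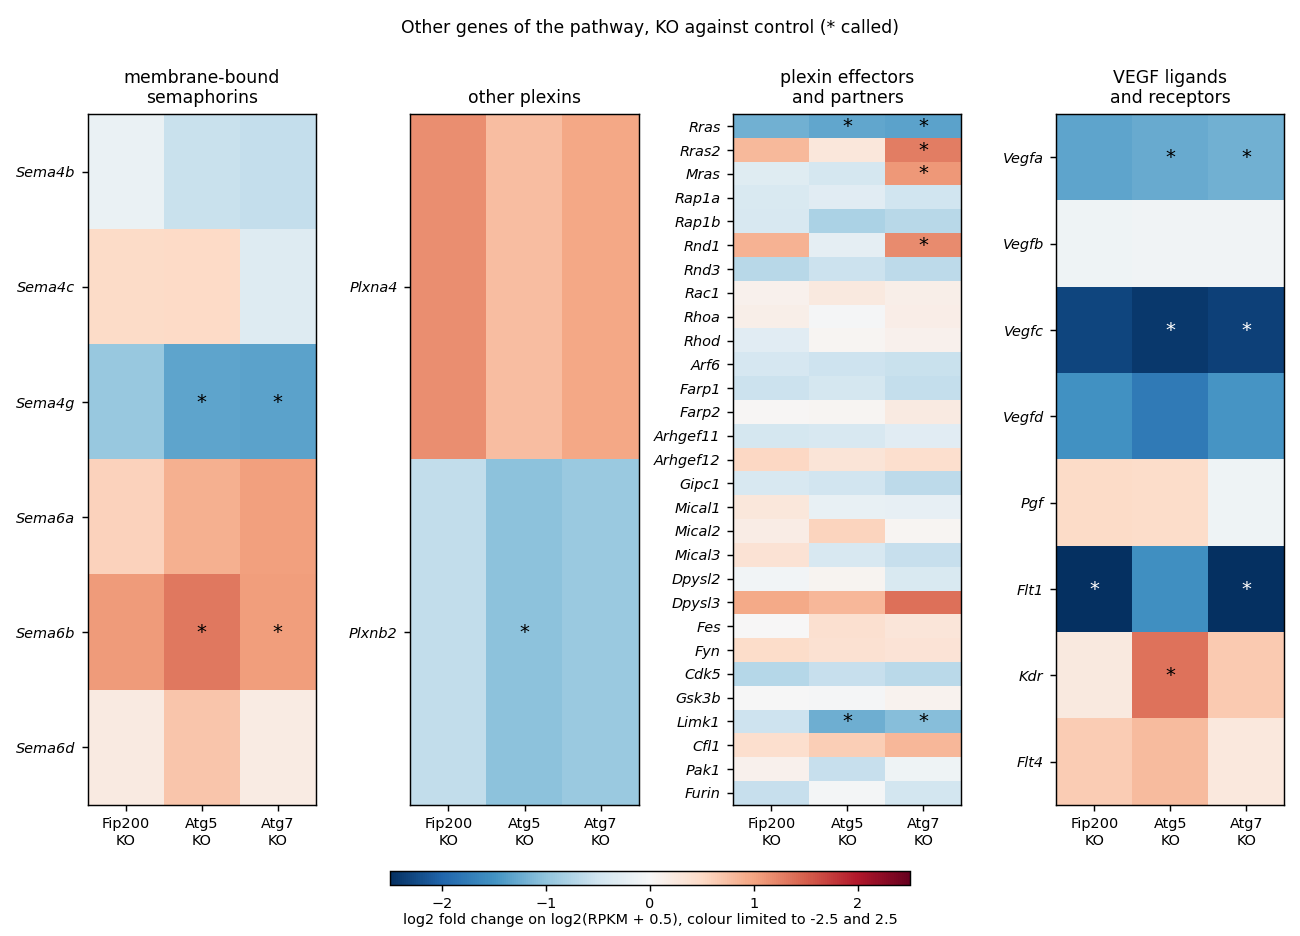
Log2 fold change of the other pathway genes tested in all 3 comparisons, 1 row a gene and 1 column a KO, with blue for lower and red for higher than control, the colour limited at −2.5 and 2.5 and an asterisk where the difference was called. Rras is blue in every column, from −1.20 to −1.33, and Sema6b red, from 1.04 to 1.32.

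Markers of other cell types differed between groups beside these results. The summed RPKM of 9 fibroblast and mural markers was 21.7 to 225 in control, 17.9 to 291 in Fip200 KO, 114 to 244 in Atg5 KO and 73.8 to 362 in Atg7 KO libraries. The members of this list did not move together. Thy1 was called higher in Atg5 and Atg7 KO cells (4.02 and 4.32, adjusted p = 0.00854 and 0.0207), Acta2 in Atg5 KO and Col1a2 in Atg7 KO cells. Col1a2 passed the filter on low values only through the Atg7 KO libraries, where it was high, so it had to differ. With the prefix as a term none of these was called, with values of 4.28 and 3.99 for Thy1, 1.48 for Acta2 and 0.53 for Col1a2, and Thy1 and Acta2 were also not called in the fit of all 12 libraries. Acta2 also lost its call without control replicate 1, control replicate 2, Atg5 KO replicate 1 or Atg5 KO replicate 2. In Fip200 KO cells Thy1 had 288, 229 and 0.210 RPKM and a log2 fold change of 2.09, not called. Without Fip200 KO replicate 3 that value was 4.92 and called (adjusted p = 0.034). Col3a1, Dcn, Pdgfra and Pdgfrb were highest in control replicate 2. Col3a1 had 2.82, 143 and 23.1 RPKM in control and 0.158 to 34.3 in the KO libraries (log2 fold changes −2.07, −1.49 and −3.58, none called). Dcn had 0.125, 56.9 and 15.2 RPKM in control and at most 0.989 in the KO libraries and was not called where tested. Pdgfra had 0.113, 9.02 and 2.26 RPKM and Pdgfrb 0.0187, 4.19 and 0.261 RPKM in control, against at most 0.320 and 0.194 in the KO libraries, and neither was tested. Cspg4 was at or under 0.0692 RPKM in every library. Of 4 leukocyte markers in the files, Ptprc, Adgre1 and Csf1r were at or under 0.179 RPKM in every library. Cd68 was called lower in Atg5 and Atg7 KO cells (−2.26 and −1.70, adjusted p = 0.0064 and 0.0798), and these calls stood in 13 and 7 of 15 alternatives. Both were lost with the prefix as a term (−1.82 and −1.13) and in the fit of all 12 libraries. The second was also lost without the filter on low values and with a term for the replicate number. Leaving out control replicate 1, 2 or 3 or Atg7 KO replicate 1 ended it as well. Of 2 epithelial markers, Krt8 stayed at or under 0.308 RPKM and Krt18 was not called. Of 9 tested endothelial markers Cdh5, Kdr and Cldn5, and of 5 tested lymphatic markers only Lyve1, were called higher in Atg5 KO cells, in 12, 9, 11 and 10 of 15 alternatives. Cdh5 lost this call with the prefix as a term (1.67) and without control replicate 2 or Atg5 KO replicate 1, Cldn5 without control replicate 2 or 3 or Atg5 KO replicate 1 or 2, and Lyve1 with the prefix as a term (1.53) and without control replicate 2 or 3 or Atg5 KO replicate 2 or 3. Lyve1 was also called higher in Atg7 KO cells, a call that stood in 4 of 15 alternatives and, of the single libraries left out, only without control replicate 1. The lymphatic markers Reln and Pdpn were lower without a call in Atg5 KO (−1.09 and −0.18) and Atg7 KO cells (−0.37 and −0.12). Prox1 and Flt4 were higher without a call in both. The part of these differences in the semaphorin and receptor values was not tested.

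The genes whose pattern over the 12 libraries was most like that of Sema3e were Mfn2 (Pearson r 0.960 on log2(RPKM + 0.5)), Cdca7l (0.932), Canx (0.928), Tgm2 (0.927) and Noc2l (0.926), out of 11002 genes compared. Mfn2 encodes a mitochondrial fusion GTPase, Canx the chaperone calnexin and Tgm2 a transglutaminase. The points share the 12 libraries and their group differences, and the correlations are descriptive. Within groups, after the group means were taken out, r was 0.933 for Mfn2, 0.850 for Cdca7l, 0.931 for Canx, 0.767 for Tgm2 and 0.808 for Noc2l. Among the members, r with Sema3e was highest for Sema3c (0.688) and lowest for Sema3a (−0.445) and Plxnd1 (−0.440), which within groups had −0.570 and −0.768.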

How the data were processed

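RNA-sequencing values of 12 libraries (3 control, 3 Fip200 KO, 3 Atg5 KO, 3 Atg7 KO) were used. Per the study's methods and the submitters' processing notes, reads from directional libraries were aligned with TopHat2, counted with Bioconductor packages and compared with edgeR; the genome build, annotation and versions are not given in the sources used here. The RPKM values that the authors deposited (3 tables, 14851 genes) carry no unit name and were identified from the values. The group means that the authors deposited are a signal on the scale of scaled reads. The fold ratio, log2 fold change and p-value columns that the authors deposited hold their own comparisons and were not used. The read numbers underlying each RPKM value were worked back from both (100.0% of values within 0.01 of a whole number), and gave depths of 17266926 to 23629730 reads per library. No 2 replicates agreed within sampling noise (chi-square per degree of freedom at least 8.193).

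Genes that reached 0.5 RPKM in 3 or more of the libraries fitted were tested with limma 3.58.1 (R 4.3.3) on log2(RPKM + 0.5) with a trend in the moderation. This scale understates the change of low genes. Each KO was compared with control over 6 libraries and KO groups with each other over 12. Genes were called at a Benjamini-Hochberg adjusted p no higher than 0.1 over all tested genes and a change of 1 or more on the log2 scale. All adjusted p given here are from limma. Alternatives were the pseudocount, the filter, median-of-ratios scaling, the library name prefix, the replicate number, the moderation, the libraries fitted, each library left out and, chosen after seeing the data, voom on the recovered reads. The test was checked on simulated data. Python 3.11.15, numpy 2.4.6, pandas 2.3.3 and matplotlib 3.10.9 were used for the rest.

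The members and gene lists were chosen with earlier results of these data known. Named genes were the 10 members, up to 4 called genes of each other list with the largest mean change, the 5 genes most like Sema3e, its 2 listed neighbours on either side and the 3 targeted genes; Mras and the uncalled genes of the other lists that the text names (such as Plxna4, Col3a1 and Prox1) are outside this rule and were chosen after their values were seen. Strand use in counting is not given in the sources used here, so overlapping antisense reads cannot be told apart. Promoters and gene order are from RefSeq GRCm38.p6, in which 14834 of 14851 genes were placed.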

Additional observations from a re-analysis of the deposited data

How the results depend on the processing

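The replicate numbers did not pair the libraries (correlations of same-numbered deviations from -0.218 to 0.077). With the replicate block, 93 genes were called in Fip200 KO cells in place of 234, and the members called stayed at 0, 1 and 0. Genes called in Fip200 KO cells numbered 146 without a filter, 47 with a term for the library name prefix, 608 in a fit of all 12 libraries and 0 to 598 with single libraries left out (0 without control replicate 2 or control replicate 3, 598 without Fip200 KO replicate 3). The prefix term was fitted on all 12 libraries. In Atg5 KO cells 663 genes were called with it, beside 1051 in the fit of all 12 libraries without it and 1331 over 6 libraries, and single left-out libraries gave 985 to 1502. In Atg7 KO cells 38 genes were called with it, beside 1110 and 1191, and single left-out libraries gave 576 to 1514. Between KO groups the prefix term gave 1, 2 and 1 called genes for Atg5 against Fip200, Atg7 against Fip200 and Atg7 against Atg5, and single left-out libraries 0 to 300, 0 to 402 and 0 to 1. Members called other than Sema3e were 0 to 1 in Fip200 KO, 0 to 1 in Atg5 KO and 0 to 2 in Atg7 KO cells with single libraries left out, and 0 to 1 for both comparisons with Fip200 KO. In Atg5 KO cells 0 members were called with the prefix term and 0 in the fit of all 12 libraries.

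With the prefix term, the Fip200 KO values were -0.38 for Sema3f, -0.0224 for Plxnd1, -0.0922 for Plxna2, 0.16 for Mras, -0.76 for Kdr and -0.10 for Cldn5, the Atg5 KO value of Sema3c was -0.58, and the Atg7 KO values were 0.48 for Sema3a, -1.97 for Sema3c, 0.77 for Sema3f, 0.0142 for Plxnd1, -0.17 for Plxna1 and 0.72 for Nrp1. Against Fip200 KO, Atg7 KO then had 0.0366 for Plxnd1 and 0.60 for Nrp1. Median-of-ratios scaling gave -0.0513 for Atg5 in Atg5 KO cells. With single libraries left out, the Fip200 KO values ran from -0.649 to 0.33 for Sema3a, -0.22 to 0.542 for Sema3f, -0.0116 to 0.77 for Plxnd1, -0.0129 to 0.4927 for Plxna2, -0.0413 to 0.5807 for Nrp2, -1.0126 to 0.0636 for Atg7, -0.5426 to 0.0055 for Mras, -0.31 to 0.7302 for Kdr and -1.6034 to 0.40 for Cd68. The Atg5 KO values ran from -0.41 to 1.2184 for Sema3c, -0.11 to 0.4289 for Sema3f, -0.0471 to 0.514 for Plxnd1, -0.0002 to 0.4066 for Plxna2, -0.28 to 0.5188 for Nrp1, -0.18 to 0.2297 for Atg5, -0.0621 to 0.514 for Rras2, -0.7365 to 0.10 for Mras and -0.5544 to 0.13 for Rnd1. The Atg7 KO values ran from -0.4613 to 0.0822 for Sema3f and -0.1524 to 0.16 for Nrp2. Of the log2 fold changes recomputed under the alternatives, 1227 counted as unchanged, 46 turned, 118 lost a call, 15 gained one and 10 values without a test moved by more than the spread between replicates. Unchanged meant the same direction and call, or for Sema3e the same direction within that spread. Values of FY or JG libraries alone had no test and counted as unchanged within that spread, whatever their sign. Turns among them are thus not in the 46. The cause of these changes was not tested.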
